A study of Mus musculus with 42 samples.

Results

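The subject is the set of chromatin regions that differed in accessibility between lung mesenchymal cells taken 56 days after bleomycin and cells taken after sham treatment. The authors' deposited list for this comparison holds 1510 regions, and all of them are described here, of 156984 regions in the 6 deposited lists of the study together. Direction and size were taken as the log2 read concentration at day 56 minus that in sham. The cells came from C57BL/6 mice in which Col1a2-expressing cells had been lineage-traced. In the day 56 group and in the sham group alike, the sort kept GFP-positive cells and excluded those with CD45, a leukocyte marker, or EpCAM, an epithelial marker. Exclusion of the endothelial marker CD31 is stated in the labels for the other sort of the study, not for this one. Bleomycin is a drug that injures the lung and is followed by fibrosis that in mice partly resolves. Each group had 4 ATAC libraries and 4 RNA libraries, day 56 and sham alike, and a further group at day 14 after bleomycin had 4 of each. Separate CD1 mice with a Col1a1-GFP reporter gave 3 ATAC libraries per group for cells cultured 5 days on gels of 0.2 kPa, cells cultured on gels of 32 kPa, and cells sorted fresh after sham treatment. The labels used here give no age, sex or pooling of the C57BL/6 animals. Lineage tracing marks every cell in which the Col1a2 promoter drove the recombinase, so the sorted cells are a mixture of mesenchymal types.

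In ATAC-seq a transposase cuts DNA that nucleosomes leave open, so a region with more reads is more accessible. Accessible regions away from gene starts are mostly enhancers, where transcription factors bind short motifs and act on genes that can lie far off. Fibroblasts lay down and remodel the collagen matrix of the lung, and after injury part of them take on a matrix-producing state marked by genes such as Cthrc1, Tnc and Runx1. RUNX proteins are transcription factors that bind TGTGGT. TEAD proteins, which bind GGAATG, carry the mechanosensitive co-activators YAP and TAZ to DNA, and AP-1 dimers of Fos and Jun proteins bind TGANTCA.

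The sequences of 11 regions are printed because the results below return to them. All are the plus strand of mm10. The first set shows gained regions that hold the RUNX letters TGTGGT or their complement ACCACA, in capitals: both promoter regions of Runx2, the region with the largest gain (nearest gene Crbn), a region of a tight cluster in Smyd3, a region of an all-gained run upstream of Lhfpl2, and the promoter of Hp. Capitals in these also mark TGANTCA for AP-1 in the second Runx2 region, GGAATG for TEAD and AGATAA for GATA in the Crbn region, and TTGCNNAA for C/EBP at Hp. In the Smyd3 region the 2 RUNX matches overlap. Regions longer than 300 bases are shown by the 300 bases at their centre.
Runx2 promoter, nearer region (chr17:44814685-44814788): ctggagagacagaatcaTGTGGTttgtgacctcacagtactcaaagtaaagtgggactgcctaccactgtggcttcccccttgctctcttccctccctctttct
Runx2 promoter, upstream region (chr17:44814903-44815117): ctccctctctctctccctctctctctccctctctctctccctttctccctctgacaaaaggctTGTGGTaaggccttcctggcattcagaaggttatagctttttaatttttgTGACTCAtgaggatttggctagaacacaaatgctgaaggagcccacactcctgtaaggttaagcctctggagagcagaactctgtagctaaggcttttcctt
Crbn, upstream (chr6:106809258-106809502): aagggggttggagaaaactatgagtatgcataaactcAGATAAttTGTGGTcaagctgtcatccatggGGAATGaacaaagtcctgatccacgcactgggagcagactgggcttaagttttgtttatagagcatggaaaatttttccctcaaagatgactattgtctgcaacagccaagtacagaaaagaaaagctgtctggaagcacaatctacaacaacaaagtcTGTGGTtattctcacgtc
Smyd3, intron (chr1:179064974-179065221): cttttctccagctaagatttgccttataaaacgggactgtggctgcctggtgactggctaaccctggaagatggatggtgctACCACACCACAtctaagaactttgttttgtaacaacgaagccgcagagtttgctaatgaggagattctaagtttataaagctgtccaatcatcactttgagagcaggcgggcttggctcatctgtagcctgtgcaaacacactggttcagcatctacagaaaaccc
Lhfpl2, upstream (chr13:93924880-93925179): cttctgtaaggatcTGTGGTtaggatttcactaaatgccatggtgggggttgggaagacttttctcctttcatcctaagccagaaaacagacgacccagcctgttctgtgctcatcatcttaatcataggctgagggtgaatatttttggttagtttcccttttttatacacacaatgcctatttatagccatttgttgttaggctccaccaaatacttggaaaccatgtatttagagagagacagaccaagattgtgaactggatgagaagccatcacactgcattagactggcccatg
Hp promoter, centre (chr8:109579042-109579341): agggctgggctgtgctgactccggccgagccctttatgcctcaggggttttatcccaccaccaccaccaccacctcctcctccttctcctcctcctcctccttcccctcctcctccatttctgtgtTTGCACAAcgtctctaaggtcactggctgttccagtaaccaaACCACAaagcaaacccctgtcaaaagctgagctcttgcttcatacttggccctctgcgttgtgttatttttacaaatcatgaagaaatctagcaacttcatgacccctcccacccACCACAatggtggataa

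The second set holds regions whose nearest gene is described by its RNA further below, where none of these genes passed limma's adjusted threshold. Capitals mark GGGCGG or its complement for KLF and SP factors at Chl1 and Rspo4, GGAATG or its complement for TEAD at Col28a1 and Slco2b1, CAGCTG for E-box factors at Col28a1, and AGGTCA, bound by nuclear receptors, at Klhl33. Chl1, Col28a1 and Klhl33 had gained regions, and Slco2b1 and Rspo4 had lost ones. The Rspo4 promoter is a CpG island-like sequence with 76.3% G and C and 41 CG dinucleotides in the 300 bases.
Chl1, intron (chr6:103512270-103512381): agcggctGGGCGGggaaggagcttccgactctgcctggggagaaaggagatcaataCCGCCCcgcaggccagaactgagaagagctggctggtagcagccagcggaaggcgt
Col28a1, intron (chr6:8174051-8174342): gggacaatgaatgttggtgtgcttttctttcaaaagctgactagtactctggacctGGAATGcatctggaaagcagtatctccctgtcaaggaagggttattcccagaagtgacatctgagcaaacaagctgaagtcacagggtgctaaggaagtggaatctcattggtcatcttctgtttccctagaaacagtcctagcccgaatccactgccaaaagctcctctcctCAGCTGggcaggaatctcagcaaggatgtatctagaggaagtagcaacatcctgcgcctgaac
Klhl33 promoter (chr14:50897499-50897676): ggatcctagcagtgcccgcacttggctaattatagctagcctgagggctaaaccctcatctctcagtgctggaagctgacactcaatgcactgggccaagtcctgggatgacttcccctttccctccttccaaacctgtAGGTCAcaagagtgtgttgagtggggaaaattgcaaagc
Slco2b1, intron, centre (chr7:99694046-99694345): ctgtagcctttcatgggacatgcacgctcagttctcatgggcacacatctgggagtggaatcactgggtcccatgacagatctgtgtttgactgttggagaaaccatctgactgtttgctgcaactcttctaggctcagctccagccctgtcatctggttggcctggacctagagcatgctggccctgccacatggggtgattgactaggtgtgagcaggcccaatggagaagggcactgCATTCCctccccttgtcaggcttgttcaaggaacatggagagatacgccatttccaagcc
Rspo4 promoter, centre (chr2:151842762-151843061): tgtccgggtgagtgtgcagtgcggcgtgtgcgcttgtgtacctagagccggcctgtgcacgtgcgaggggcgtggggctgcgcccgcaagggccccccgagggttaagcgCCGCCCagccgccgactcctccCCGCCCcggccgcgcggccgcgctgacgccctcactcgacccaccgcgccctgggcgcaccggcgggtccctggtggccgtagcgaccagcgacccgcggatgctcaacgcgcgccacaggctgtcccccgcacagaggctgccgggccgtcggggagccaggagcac

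At day 56, 908 regions had gained accessibility and 602 had lost it. Each region was deposited because it passed the authors' thresholds, with an FDR no higher than 0.05 and a log2 difference of 1 or more in either direction before rounding. The authors' smallest p-value and its FDR imply that 91300 regions were compared, so the list is 1.65% of them, the gained regions 0.995% and the lost regions 0.659%. The lists of the other C57BL/6 comparisons were longer, with 25518 regions for day 14 against sham and 21413 for day 56 against day 14. The deposited values are group values without a spread between libraries, so no error can be attached to a single region beyond the authors' own FDR.

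Most differences were modest. The median was 1.21 on the log2 scale in gained regions and -1.18 in lost regions. A difference of at least 2 was found in 59 gained and 57 lost regions, and one of at least 3 in 9 gained and 10 lost regions. The concentrations mirrored each other. Gained regions had a median log2 concentration of 5.96 at day 56 and 4.66 in sham, whereas lost regions had 4.62 at day 56 and 5.96 in sham.

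The directions differed in the strength of the authors' evidence. The median FDR was 0.000615 for gained and 0.00528 for lost regions, and an FDR of at most 1e-05 was reached by 198 gained regions (21.8%) and 42 lost regions (6.98%). Among autosomal regions with a difference of at least 2, only 3 of 57 gained regions had an FDR above 0.01, against 39 of 52 lost regions. The plot of difference against FDR shows this asymmetry.

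**Figure D1:**
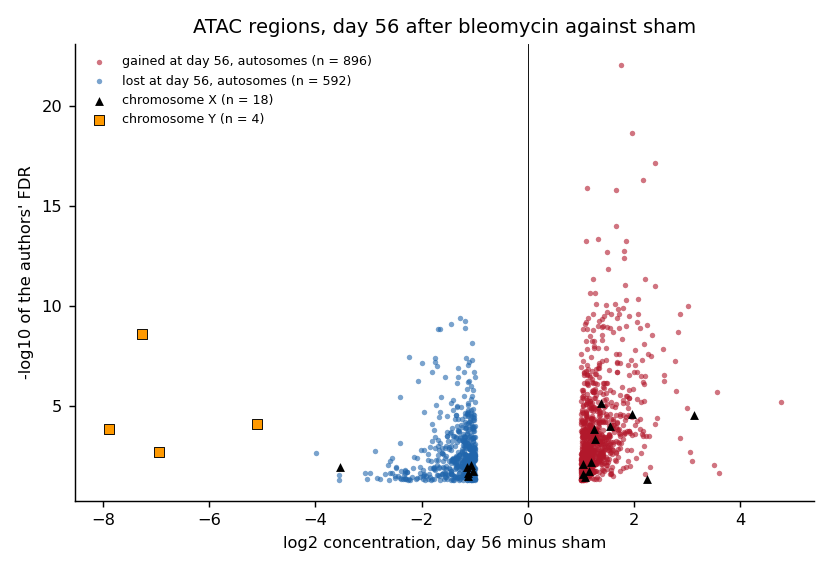
Log2 concentration at day 56 minus sham (horizontal axis) against −log10 of the authors' FDR (vertical axis) for the 1510 regions, with gained and lost autosomal regions in colour and those on the sex chromosomes marked apart. The gained side reaches an FDR of 8.36e-23, the lost autosomal side 4.12e-10, and the 4 regions on chromosome Y lie farthest left.

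The regions were mostly distal. Promoters held 17 gained regions (1.87%) and 12 lost regions (1.99%), while 56.7% of gained and 46.3% of lost regions were intergenic and 39.2% and 45.0% lay in introns. The median distance to the nearest start site was 55757 bases for gained and 47402 bases for lost regions. Regions lay together by direction. Of 69 neighbouring pairs within 1000 bases, all 69 shared their direction, and of 118 pairs within 10000 bases, 114 did (96.6%). Close regions can be parts of 1 accessible stretch that peak calling split, so such pairs are not independent.

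Runs of neighbouring regions, with gaps of at most 50000 bases, stood out as units. All 6 regions of a stretch on chr15:11505164-11590119, 105689 to 190341 bases upstream of the threonyl-tRNA synthetase gene Tars, were gained. So were 5 regions on chr13:93855643-93979436 whose nearest genes are Lhfpl2 and Mir5624. The strongest, 132767 bases upstream of the Lhfpl2 start site and in an intron of another transcript, NM_009712, stood at 7.64 at day 56 and 5.47 in sham, a difference of 2.17 (authors' FDR 4.99e-17). Within only 4214 bases on chr1:179061008-179065221, 4 gained regions lay in an intron of Smyd3, a lysine methyltransferase gene. The strongest of these had 7.25 at day 56 and 4.85 in sham, a difference of 2.40 (authors' FDR 7.06e-18). Further runs of 4 gained regions lay at Bcl11a, a zinc finger transcription factor gene, at the formin gene Fmn1, and at Srgap1, Dad1, Gm13985, Platr4 and Myo1e. Every run of 4 or more was wholly gained except that of 4930447J18Rik, a non-coding gene, with 4 gained and 2 lost regions on chr14:47819360-47898515.

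The largest gain lay 9293 bases upstream of Crbn, which encodes cereblon, the substrate receptor of a ubiquitin ligase. This region, chr6:106809258-106809502, had a log2 concentration of 5.98 at day 56 and 1.22 in sham, a difference of 4.76 (authors' FDR 6.12e-06). Its concentration in sham was among the lowest of the gained regions, and it holds 2 RUNX matches. An overlapping region of the day 14 list had 6.82 at day 14 and 0.94 in sham. That list shares its sham libraries with the day 56 list, and concentrations are scaled within each list.

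The next gains were at Tmem260 (3.59), Zfp862-ps (3.56), the melanopsin gene Opn4 (3.51), the tRNA methyltransferase gene Ftsj1 on chromosome X (3.12), the morphogen gene Bmp4 (3.08), Rprl3 (3.05), the sodium-proton exchanger gene Slc9a4 (3.01), 2310008N11Rik (3.00) and Rtl6 (2.87). The Zfp862-ps region had 7.11 at day 56 and 3.55 in sham, beside 8.44 at day 14 and 3.30 in sham in the day 14 list. The Bmp4 region, chr14:46418534-46418698, had 5.11 at day 56 and 2.03 in sham and overlapped no region of the day 14 list. The Slc9a4 region is annotated to the 3' UTR of another transcript, NM_010553. The smallest FDR of all, 8.36e-23, belonged to chr8:16838736-16839408, whose nearest start site is that of Mir3106, with 9.15 at day 56 and 7.39 in sham. This region lies in an intron of the transcript whose promoter the list names Csmd1, and the Csmd1 promoter was itself gained, with 8.55 at day 56 and 7.38 in sham.

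The 4 largest losses were all on chromosome Y. The promoter of Eif2s3y, a subunit of translation initiation factor 2, had -0.20 at day 56 and 7.69 in sham, a difference of -7.89. The other Y regions lay at Uty, a paralog of a histone demethylase gene (-7.26 and -5.10), and at Uba1y (-6.94). In the RNA of the same groups, Xist, the X-inactivation transcript, had rescaled values of 2566, 2228, 2464 and 2514 at day 56, and 0, 1187, 0 and 0.87 in sham. The Y-linked Ddx3y had no read in any day 56 library, and 4452, 0, 4757 and 4820 in sham. All 4 day 56 RNA libraries and 1 sham library thus had Xist reads and no Ddx3y reads. With a term for Xist-positive libraries in the RNA fit, the log2 difference was -0.03 for RNA Ddx3y, 0.08 for RNA Eif2s3y and 0.09 for RNA Uty, against -9.14, -8.06 and -7.36 without it. The ATAC values are per group, so treatment and sex cannot be told apart for the Y regions. Because the groups differed in Y signal, the same limit holds for every other region of the list, on autosomes and on X. Outside chromosome Y the list holds 12 gained and 6 lost regions on X.

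The largest losses off chromosome Y were at Btnl6, a butyrophilin-like gene (-3.99), the bZIP factor gene Cebpg (-3.56), the small GTPase gene Arl4a (-3.55), the X-linked Htatsf1 (-3.53), Gm10432 (-3.07) and Them4 (-3.03). The Btnl6 region had 2.77 at day 56 and 6.76 in sham (authors' FDR 0.00224). Those of Cebpg, Arl4a and Them4 passed only at an FDR of 0.0275, 0.0478 and 0.0434. Of these 6 regions only that of Htatsf1 overlapped one of the day 14 list. The lost regions with the smallest FDR were instead of modest size: at Stx8 (-1.27, FDR 4.12e-10), at Adamts9, which encodes a secreted metalloproteinase (-1.19, FDR 5.29e-10), at Sorcs1 (-1.44), and in the first intron of Slco2b1, an organic anion transporter gene (-1.18, FDR 1.28e-09).

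Of the 17 gained promoter regions, 2 belonged to Runx2, the runt-family factor best known for bone formation. The nearer one had 5.33 at day 56 and 3.28 in sham, a difference of 2.05 (authors' FDR 4.27e-06), and the upstream one had 5.88 at day 56 and 4.55 in sham, a difference of 1.33 (FDR 6.15e-05). Both hold the letters that RUNX proteins bind, and both overlap 1 region of the day 14 list with 7.54 at day 14 and 4.89 in sham. Other gained promoters were those of Hp, the haemoglobin-binding protein haptoglobin (7.0 at day 56 and 5.06 in sham), Klhl33, of the Kelch-like family (6.29 at day 56 and 4.41 in sham), the antiviral enzyme gene Oas1a (difference 1.65), the adhesion molecule gene Chl1 (1.46) and the lymphocyte phosphatase gene Ptpn22 (1.46). The remaining gained promoters, among them Klhl6, Gpam, Gja3 and Ifi47, differed by 1.05 to 1.32.

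Lost promoters numbered 12, and 2 of them were the Y-linked ones above. That of Rspo4, a secreted enhancer of WNT signalling, had 6.53 at day 56 and 7.66 in sham, a difference of -1.13 (authors' FDR 8.95e-08). The promoter of the growth factor gene Igf2 had 6.32 at day 56 and 7.39 in sham, a difference of -1.07 (FDR 2.11e-05). Larger differences were listed for Krtap4-16 (-1.88), 4930447J18Rik (-1.78) and Mir704 (-1.35), with weaker support (FDR 0.00481, 0.0120 and 0.00458).

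All but 2 regions had a nearest gene symbol. Of the 1205 nearest genes, 669 had gained regions only, 484 had lost regions only and 52 had both. Just 21 genes had 4 or more regions. Chl1, a neural cell adhesion molecule of the L1 family, had 5, all gained. The largest of these lies in its first intron, chr6:103512270-103512381, with 5.48 at day 56 and 3.27 in sham, a difference of 2.21 (authors' FDR 3.15e-07). The other most frequent genes were 4930447J18Rik and Tars with 6 each, Gm12724 with 1 gained and 4 lost, and 4930448K20Rik.

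Lists of genes by function are given next. Over all regions 60.1% were gained, and 4.45% of all genes tested in the RNA (940 of 21100) were nearest to a region. No list was tested against these shares. The list of fibrosis-associated fibroblast genes had regions at 8 of its 20 members, 9 gained and 2 lost. Tnc, which encodes the matrix glycoprotein tenascin-C, had gained regions of 1.77 and 1.07 (the larger with 6.90 at day 56 and 5.13 in sham, authors' FDR 4.19e-09). The single region of Cthrc1, a secreted protein of matrix-producing fibroblasts, was at the edge of the thresholds, with a difference of 1.00 and an FDR of 0.0449. The 2 lost regions belonged to Col8a1 (-2.48) and to Cemip, a hyaluronan-degrading protein gene that also had a gained one (-1.12 and 1.40). Matrix glycoprotein and elastic fibre genes had 9 gained and 3 lost regions at 9 of 33 genes. Tnxb, encoding tenascin-X, had one of each within the same gene body (-2.88 and 1.25). Fn1, Lum, Has2 and Mfap5 had gained regions of 1.02 to 1.11.

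Collagens were mixed. The list of other collagens had 5 gained and 5 lost regions at 6 of 25 genes, and each gene kept to one direction. Col24a1, a fibril-forming collagen, had 3 gained regions of 1.63, 1.66 and 2.14, and Col28a1, a collagen with von Willebrand factor domains, had 2 in an intron, of 1.01 and 2.18. Lost regions lay at Col8a1, Col13a1 (-1.09 and -1.16), Col6a3 (-1.08) and Col6a6 (-1.12). In the list of fibrillar collagens and collagen processing, 2 of 24 genes had a region, the crosslinking enzyme gene Loxl4 (-1.01 and 1.10) and the prolyl hydroxylase gene P4ha3 (1.81), and none of the collagen genes of that list did.

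Transcription factor genes come next. The RUNX, TEAD and YAP list had 4 gained regions and no lost one at 3 of 19 genes: the 2 Runx2 promoter regions, 1 in an intron of Runx1 (7.95 at day 56 and 6.84 in sham, difference 1.11), and 1 upstream of Tead1 (1.21). Lung mesenchyme factors had 7 gained and 3 lost regions at 9 of 38 genes. A wide region 23305 bases upstream of Tbx5, a T-box factor of heart and lung development, had the highest day 56 concentration of all gained regions, 9.70 at day 56 and 8.59 in sham (authors' FDR 1.21e-16). Meox1, a homeobox factor, had 2 gained regions (1.19 and 1.17), Foxf2 had 1 (1.57), and Meis1 (-1.69), Foxp1 (-1.55) and Klf15 (-1.0) had lost ones. AP-1 and immediate-early genes had 2 gained and 3 lost regions at 4 of 22 genes, and of these Batf3 had a gained region of 2.43 and Klf4 had lost ones of -1.69 and -1.53.

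The TGF-beta list had 2 gained and 3 lost regions at 4 of 25 genes, with the ligand gene Tgfb2 gained (1.40 and 1.49) and the co-receptor gene Tgfbr3 (-1.38), the activin receptor gene Acvr2a (-1.0) and the latency protein gene Ltbp1 (-1.98) lost. BMP, WNT and Hedgehog genes had 4 gained and 3 lost at 6 of 38 genes. Wnt5a had a gained region (1.69) and a lost one (-1.71), 331593 and 186622 bases from its start site. Growth factor genes had 4 gained and 2 lost regions at 6 of 39 genes, and proteases and their inhibitors 2 gained and 4 lost at 5 of 26, including the lost region in the first intron of Mmp14, a membrane-bound collagenase gene (-1.0). Contractile genes had 1 region, in Actn1 (1.31). Lipid genes had 2, both gained, interferon and inflammatory genes 1 gained each, integrin genes 1 lost, and cell cycle genes 1 gained and 2 lost.

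For markers of cell types, no region was assigned to the marker lists of adventitial fibroblasts, pericytes, smooth muscle, mesothelium, leukocytes or red cells. The endothelial receptor gene Kdr had 2 lost regions (-2.19 and -1.03), the epithelial surfactant gene Sftpb 1 gained region (1.44), and the fibroblast genes Lum and Tcf21 1 gained each. Lgr6 of the peribronchial list had 1 gained (1.91) and 1 lost (-1.19). In the RNA, summed fibroblast markers were 29407 to 43901 CPM at day 56 and 29542 to 42024 CPM in sham, endothelial markers 71.1 to 145 CPM at day 56 and 168 to 271 CPM in sham, epithelial markers 41.9 to 187 CPM at day 56 and 126 to 325 CPM in sham, and leukocyte markers 184 to 655 CPM at day 56 and 232 to 350 CPM in sham. No marker list was at 0. Endothelial sums did not overlap between the groups, and their part in the lost Kdr regions was not tested. Of the 8 endothelial markers, 1 had an unadjusted limma p under 0.05, and their median log2 difference was -0.36. The RNA of Kdr, Pecam1 and Cdh5 each overlapped between the groups. In bulk samples, fewer cells of a type and less RNA or open chromatin per cell cannot be told apart.

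Short motifs were counted in the 300 bases around each region's centre, on both strands. The RUNX letters TGTGGT stood in 40.5% of gained regions and 17.9% of lost regions. Among 78968 merged regions of the other deposited lists they stood in 22.9%, and among 32817 RefSeq promoters of 300 bases in 16.8%. The merged set pools both directions, culture lists included, and regions that overlap the day 56 list were not removed. Regions gained at day 14 were not counted apart, so whether the share is particular to day 56 was not tested. By base composition, in windows of under 43%, 43 to under 49%, and 49% or more G and C, it was 36.0, 44.6 and 40.9% in gained regions, 18.7, 19.5 and 16.5% in lost regions, and 26.7, 27.5 and 19.4% in the merged other regions. It was higher among larger gains, with 37.6% at differences under 1.5, 48.2% from 1.5 to 2, and 57.6% (34 of 59) at 2 or more. In lost regions the same bins held 18.9, 15.5 and 14%. Of the 17 gained promoter regions, 7 had the letters. The counts describe letters, not binding.

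GATA letters (AGATAA) stood in 21.6% of gained, 9.97% of lost and 12.1% of the merged other regions, a ratio of gained to lost similar to that of the RUNX letters. TEAD letters (GGAATG) stood in 26.4% of gained, 19.9% of lost and 21.4% of the others, and FOX letters (TGTTTAC) in 7.93, 5.32 and 4.28%. E-box letters (CAGCTG) ran the other way, with 22.1% of gained, 30.6% of lost and 23.6% of the others. Over all windows, AP-1 letters (TGANTCA) were below the merged regions in both directions, with 21.5% of gained, 23.4% of lost and 29.7% of the others. In the same ranges the shares were 19.3, 22.6 and 22.8% in gained and 33.3, 24.6 and 19.9% in lost regions. The others had 43.2, 38.6 and 21.1%, so at 49% or more the gained share was not below theirs. KLF and SP letters (GGGCGG), found in 35.6% of promoters and 21.6% of the others, stood in 5.40% of gained and 6.15% of lost regions. C/EBP letters (TTGCNNAA) stood in 18.2% of gained, 15.6% of lost and 14.1% of the others, nuclear receptor letters (AGGTCA) in 22, 19.6 and 18.6%, and ETS letters (CCGGAA) in 4.30, 3.99 and 8.74%. NF1 and CTCF motifs, searched in full length, were found in at most 1 region of either direction. ETS and TEAD matches can share their GGAA. Gained regions were lower in G and C, with a median of 45.0%, against 48.7% in lost regions. Within the same ranges of G and C as above, GATA letters stood in 28.4, 19.1 and 15.5% of gained regions, 16, 11 and 7.56% of lost regions, and 22.1, 16.3 and 7.0% of the merged other regions, so their share was lower at higher G and C in all 3 groups. The part of base composition in the FOX share was not tested.

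**Figure D2:**
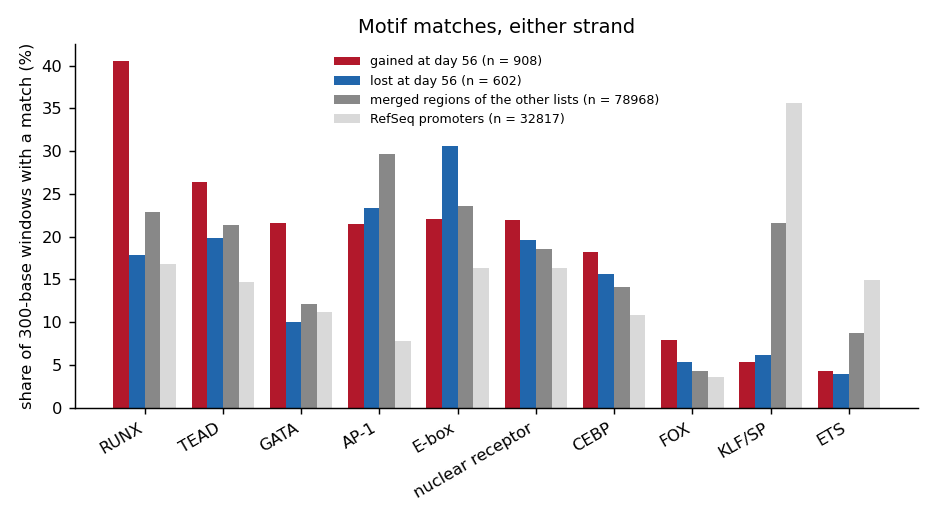
Share of 300-base windows (%) with at least 1 match to each motif on either strand, in gained regions, lost regions, merged regions of the other lists and RefSeq promoters. RUNX letters stand in 40.5% of gained and 17.9% of lost regions, whereas KLF/SP letters are most frequent in promoters.

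RNA of the nearest genes was measured in separate libraries, so it is a readout that the list did not use. Whether RNA and ATAC libraries came from the same animals is not in the labels. Both had little or no Y-linked signal at day 56, so treatment and sex are mixed in both. Library values are the authors' normalized values, rescaled by 1 factor per library. Limma, with Benjamini-Hochberg adjustment over 21100 genes, called 0 genes higher (0.0%) and 1 lower (0.00474%) at day 56, and that gene, the angiopoietin gene Angpt4, was no nearest gene. EdgeR on the recovered reads likewise called 0 higher and 1 lower. At an unadjusted limma p under 0.05, 640 genes were higher (3.03%) and 688 lower (3.26%). With the values as deposited, which place the median of all genes at -0.22, 288 were higher and 2296 lower, so directions are given relative to the rescaled values. Of the 1205 nearest genes, 1195 were matched and 940 were tested.

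Against that background, genes of gained regions were more often higher and genes of lost regions more often lower. Among 515 tested genes with gained regions only, 62 were higher at an unadjusted p under 0.05 (12%) and 10 lower (1.94%). Among 384 genes with lost regions only, 8 were higher (2.08%) and 34 lower (8.85%). The median log2 RNA difference was 0.12 for genes of gained regions, -0.11 for genes of lost regions and -0.02 for all genes tested. By distance, where a region lay within 10000 bases, 18 of 89 genes of gained regions were higher (20.2%) and 0 lower, and 0 of 64 genes of lost regions were higher and 10 lower (15.6%), among them the Y-linked Eif2s3y and Uty. Farther away the shares did not order evenly: genes of gained regions were higher in 10.3, 13.5 and 7.81%, and genes of lost regions lower in 5.26, 5.95 and 13.1%, at 10 to 50 kb, 50 to 100 kb and 100 kb or more. Genes of gained regions with RUNX letters were higher in 10.9% of cases and those without in 13.1%.

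These shares moved with differences between libraries. Sham replicates 1 and 2 and day 56 replicates 2 and 3 had 16563 to 17561 genes detected, the other C57BL/6 libraries 19384 to 21381. Within the 4 libraries with fewer genes, 16 of 473 genes of gained regions were higher (3.38%) and 18 lower (3.81%), against 1.52% higher and 3.39% lower among all genes. Within the 4 with more genes, 102 of 511 were higher and 13 lower (2.54%), against 3.88 and 3.32% among all genes. Genes of lost regions were lower in 18 of 368 cases (4.89%) within the libraries with fewer genes and in 45 of 381 (11.8%) within those with more. The Xist-positive sham replicate 2 was among the libraries with fewer genes. Both sham libraries with more genes were Xist-negative, and every day 56 library was Xist-positive. Genes detected and sex therefore cannot be told apart in this split. With a term for Xist-positive libraries, 28 of 515 genes of gained regions were higher (5.44%, all genes 2.01%) and 12 of 384 genes of lost regions lower (3.12%, all genes 2.14%). The part of library quality and of sex in the shares was otherwise not tested.

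The 18 genes with higher values and a gained region within 10000 bases were, by log2 RNA difference, Chl1 (5.55), Ptpn22 (4.01), Tnfsf8 (3.03), Gimap8 (2.84), Gm5820 (2.69), Hsbp1l1 (2.21), Aurka (1.85), Klhl33 (1.81), Tmem178 (1.16), Meox1 (1.11), Klhl6 (1.08), Ecscr (0.99), D030025P21Rik (0.96), Myo7a (0.83), Piezo2 (0.79), Ppp1r3a (0.78), Gcnt2 (0.63) and Nostrin (0.55). Ptpn22, the cytokine gene Tnfsf8, Gimap8 and Klhl6 are best known from lymphocytes, and summed leukocyte markers were 184 to 655 CPM at day 56 and 232 to 350 CPM in sham. Ecscr and Nostrin are best known from endothelium, whose summed markers were lower at day 56 than in sham. The part of these cells in the values was not tested. The 10 genes with lower values and a lost region within 10000 bases were Eif2s3y (-8.06), Uty (-7.36), Lrrn1 (-1.98), Slco2b1 (-1.16), Rspo4 (-1.13), Igf2 (-0.94), the interleukin-15 receptor gene Il15ra (-0.84), Fez1 (-0.82), Trip10 (-0.39) and the collagen receptor gene Ddr2 (-0.33). All were picked by their unadjusted limma p, none passed the adjusted threshold, and the groups overlapped in several, such as Piezo2, Meox1 and Igf2.

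**Figure D3:**
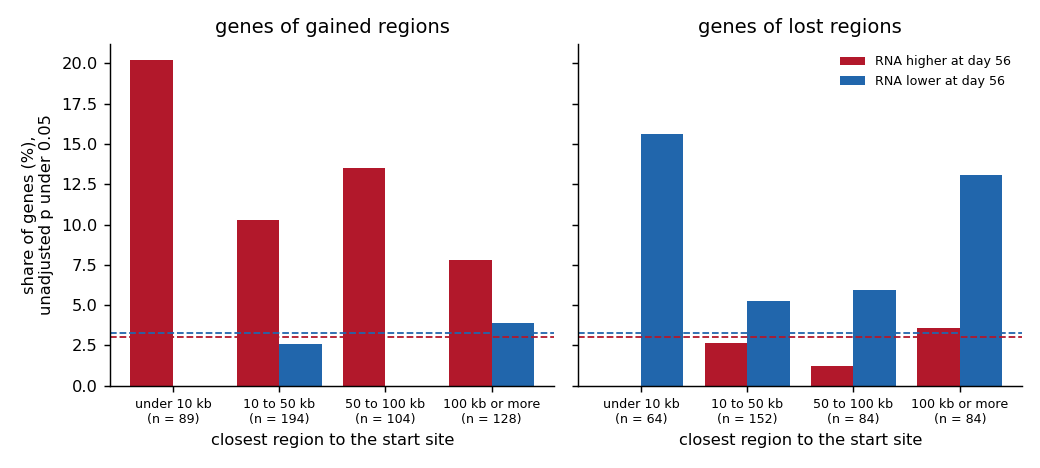
Share of nearest genes (%) with RNA higher or lower at day 56 at an unadjusted limma p under 0.05, by distance of the closest region to the start site, for genes of gained regions (left) and of lost regions (right). Dashed lines give the shares of all 21100 genes, 3.03% higher and 3.26% lower, and within 10 kb no gene of a gained region was lower and no gene of a lost region higher.

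The authors' deposited table, restricted to its FDR under 0.05, called 9 of 442 genes of gained regions higher (2.04%, against 0.235% of all genes) and 0 lower. Of 342 genes of lost regions, 7 were lower in the authors' deposited table (2.05%, against 0.151% of all genes) and 0 higher. The 9 were Cthrc1, Klhl33, Sfrp2, Col28a1, Fbln7, Il34, Tmem178, Serpine2 and Etv1. The 7 were Eif2s3y, Uty, Angptl7, Rspo4, Slco2b1, Pax1 and Ntrk2. These genes were picked for the next paragraphs after their values were seen, and none passed limma's adjusted threshold. Every day 56 RNA library was Xist-positive, and of the sham libraries only replicate 2 was.

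Klhl33 had rescaled RNA values of 641, 948, 943 and 675 at day 56, and 275, 202, 173 and 263 in sham. Every day 56 library lay above every sham library. The log2 difference was 1.81 ± 0.31 (SE; limma adjusted p = 0.0681), next to a gained promoter. Col28a1 had 4236, 2207, 1946 and 3637 at day 56, and 971, 1487, 832 and 826 in sham. The groups did not overlap, with a difference of 1.51 ± 0.25 (limma adjusted p = 0.0546). Cthrc1 had 256, 614, 368 and 784 at day 56, and 51.1, 194, 105 and 53.1 in sham, again without overlap (2.40 ± 0.40, limma adjusted p = 0.0608). The Xist-positive sham replicate 2 had the highest sham value of Col28a1 and Cthrc1, but not of Klhl33. With a term for Xist-positive libraries, the Cthrc1 difference was 1.85. The part of sex in these values was otherwise not tested.

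Serpine2, which encodes the protease inhibitor nexin-1, was the most abundant of these genes. Its values were 31231, 37015, 34152 and 36252 at day 56, and 19624, 16994, 12566 and 14528 in sham, a difference of 1.14 ± 0.17 (limma adjusted p = 0.0546) beside a gained region of 1.57. Fbln7, a fibulin of the extracellular matrix, had 2422, 2992, 3312 and 3514 at day 56, and 1024, 1733, 1002 and 779 in sham (1.48 ± 0.24, limma adjusted p = 0.0546). In both genes the groups were apart. The WNT-binding protein gene Sfrp2 averaged 1463 ± 397 at day 56 and 470 ± 225 in sham (SD, n = 4 each), and Il34, a ligand of the macrophage growth factor receptor, 609 ± 114 at day 56 and 239 ± 53.6 in sham. Of the sham libraries, replicate 2 had the highest value of Fbln7, Sfrp2 and Il34, but not of Serpine2.

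Chl1, the gene with 5 gained regions, had 444, 322, 234 and 517 at day 56, and 0, 0, 133 and 26.1 in sham. It was near silent in sham replicates 1 and 2, which are the sham libraries with fewer genes detected, and the groups did not overlap (5.55 ± 1.20, limma adjusted p = 0.255). Tenascin-C RNA (Tnc) varied widely, with 5117, 986, 3454 and 10356 at day 56, and 519, 1872, 1860 and 998 in sham. Day 56 replicate 2 lay within the sham range, so the groups overlapped (1.66 ± 0.56, limma adjusted p = 0.694). Large gains in accessibility did not always stand beside a difference in RNA. Crbn averaged 4015 ± 655 at day 56 and 4034 ± 134 in sham (-0.02 ± 0.15; SD, n = 4 each). Bmp4 averaged 6587 ± 1085 at day 56 and 6906 ± 863 in sham (SD, n = 4 each). Smyd3, with its 4 gained regions, averaged 721 ± 89.0 at day 56 and 725 ± 45.1 in sham (SD, n = 4 each).

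Runx2 was barely expressed, and its values of 107, 18.7, 13.0 and 54.2 at day 56 overlapped those of 5.04, 2.22, 34.5 and 37.4 in sham (1.49 ± 0.85, limma adjusted p = 0.831). The fibrosis-associated list as a whole had no gene called by limma, 5 of 20 higher and 0 lower at an unadjusted p under 0.05, and a median log2 difference of 0.35, beside 3.03% higher, 3.26% lower and a median of -0.02 over all genes tested. The matrix glycoprotein list had 5 of 33 higher and 0 lower, with a median of 0.10. Spp1, which encodes osteopontin and had no region, differed by 1.89 (limma adjusted p = 0.0546), and the collagen gene Col1a1 by 0.00.

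Genes of lost regions are given in the same way. Slco2b1 had 10065, 5398, 7596 and 9501 at day 56, and 22094, 13504, 17427 and 18592 in sham. The groups did not overlap (-1.16 ± 0.23, limma adjusted p = 0.191). Rspo4, with its lost promoter, had 186, 159, 141 and 116 at day 56, and 299, 277, 337 and 407 in sham (-1.13 ± 0.44, limma adjusted p = 0.761). Ntrk2, the TrkB neurotrophin receptor gene with 3 lost regions, averaged 3528 ± 371 at day 56 and 5990 ± 994 in sham (SD, n = 4 each). Igf2 overlapped between groups, with 708, 1441, 938 and 441 at day 56, and 2658, 1275, 1489 and 1134 in sham (-0.94 ± 0.35, limma adjusted p = 0.751). Sham replicate 2 had the lowest sham value of Slco2b1 and Rspo4, but not of Ntrk2 or Igf2.

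**Figure D4:**
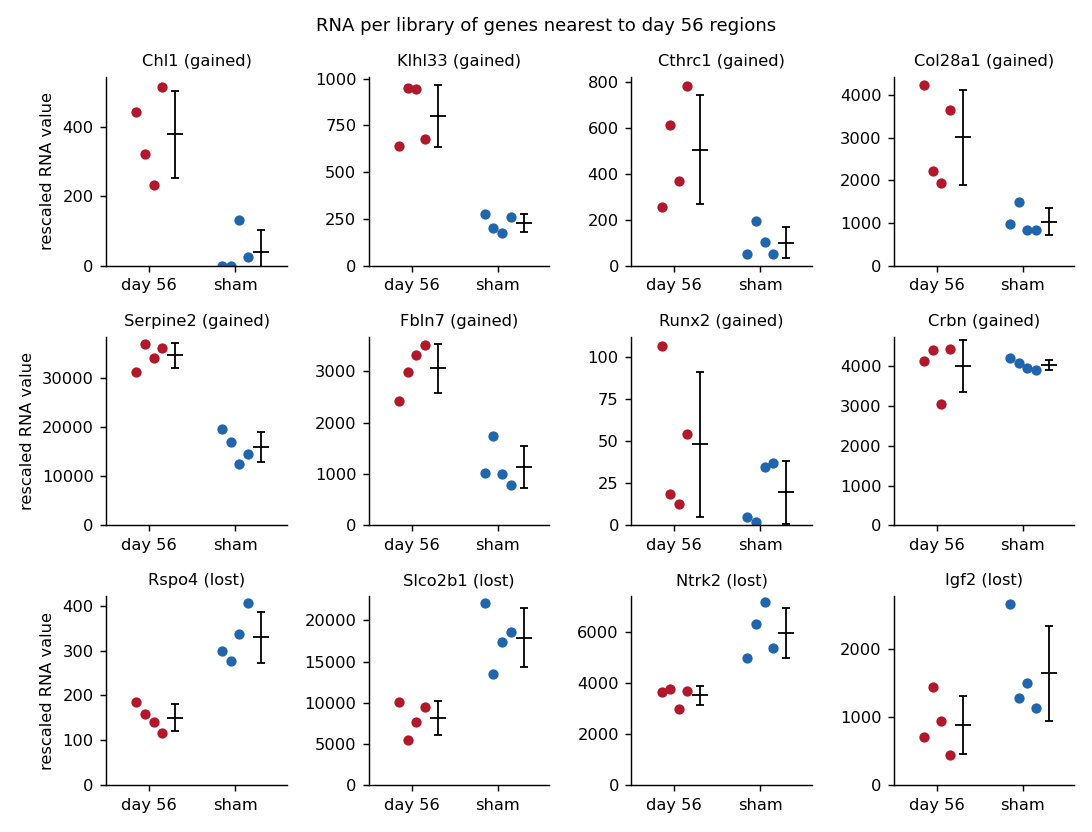
Rescaled RNA value per library (vertical axis, starting at 0) of 12 nearest genes at day 56 and in sham, with mean and SD of 4 libraries each beside the points. Klhl33, Cthrc1, Col28a1, Serpine2 and Fbln7 lie higher in every day 56 library, Rspo4, Slco2b1 and Ntrk2 lower, and Crbn overlaps.

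Culture on gels, in other mice and with no library in common, gave a further readout of the same regions. Of the gained regions, 150 (16.5%) overlapped a region gained on 32 kPa gels against fresh CD1 cells, and 34 (3.74%) a region lost there. Of the lost regions, 19 (3.16%) overlapped a region gained on 32 kPa and 44 (7.31%) a region lost there. On 0.2 kPa gels the gained regions overlapped 82 gained (9.03%) and 36 lost (3.96%) regions, and the lost regions 5 gained (0.831%) and 46 lost (7.64%). These overlaps are a small part of the culture lists, 0.866% of the 17328 regions gained on 32 kPa and 1.41% of the 5725 gained on 0.2 kPa. Gained day 56 regions overlapped 0.085% of the 41182 regions lost on 32 kPa and 0.0886% of the 41750 lost on 0.2 kPa. Lost day 56 regions overlapped 0.11% of regions gained and 0.109% of those lost on 32 kPa, so these shares were close. On 0.2 kPa they overlapped 0.0873% of regions gained and 0.113% of those lost. The Crbn region was among the shared ones, with a culture difference of 4.82 on 32 kPa and 4.25 on 0.2 kPa, as was a Col28a1 region (2.03 on 32 kPa and 1.47 on 0.2 kPa). The gained Lum and Meox2 regions lost accessibility in culture, with differences of -1.45 and -3.64 on 32 kPa.

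**Figure D5:**
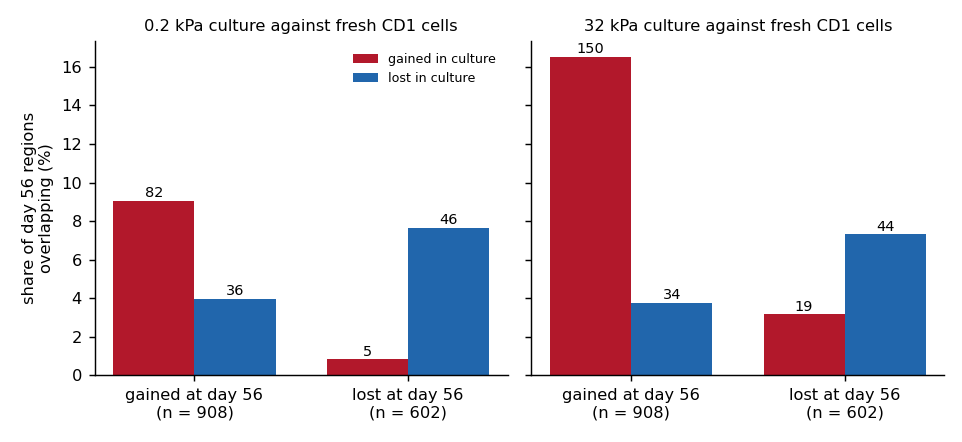
Share of the 908 gained and 602 lost day 56 regions (%) that overlap by at least 1 base a region gained or lost in culture on 0.2 kPa (left) or 32 kPa gels (right) against fresh CD1 cells, with counts above the bars. The tallest bar is the 150 gained regions also gained on 32 kPa.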

How the data were processed

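The ATAC and RNA libraries were processed by the authors before deposit. The submitters' processing notes name Bowtie2, SAMtools, MACS2, bedtools, DiffBind and HOMER, usual for ATAC-seq, and HISAT2, Picard, featureCounts, Subread and DESeq2, usual for RNA-seq, with the build mm10. Not given in the sources used here are their settings, any shift of reads for the transposase, and whether peaks were called per library or on pooled libraries. Per the file headers, the ATAC lists hold for each region the log2 concentration per group, its log2 fold, and the FDR and p-value, with HOMER's place and nearest gene. These values are per group, with no spread between libraries, so no test was added and ATAC depth was not analysed here. Fold columns were checked against the concentrations. A repeated header line was left out, and start positions are printed as the files give them.

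The RNA table deposited by the authors holds a normalized signal per gene and library, and the file headers also name adjusted p-values and log2 fold changes between groups. All values (100%) were whole multiples of 1 step per library within a tolerance of 0.05 reads, so read counts were recovered from the deposited signal. Recovered reads numbered 14288605 to 40840180 at day 56 and 38565030 to 51288435 in sham. Values were rescaled by a median-of-ratios factor per library. Genes with a mean of at least 1 were tested with limma 3.58.1 (limma-trend, R 4.3.3) on log2(value + 1), in 1 fit of the 12 C57BL/6 libraries, with Benjamini-Hochberg adjustment at 0.05. On this scale the added 1 shrinks differences of low genes. A value of 0 in single libraries can instead make the difference larger than the ratio of the group means. Chl1 is such a case, with a log2 difference of 5.55 beside means of 379 at day 56 and 39.8 in sham. EdgeR 4.0.16 on the recovered counts was an alternative. Marker sums are CPM (reads scaled by the library total) computed from the reads recovered from the deposited signal. The fit was tested on simulated data.

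Region sequences were read from the mm10 genome (GRCm38) with pyfaidx 0.9.0.4, and promoters are RefSeq's. The 12 motifs searched on both strands were the 10 in the report and those of NF1 and CTCF.

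Named regions were the 10 largest rises and falls, promoter regions among the largest, the genes with the most regions, nearest genes by RNA, up to 4 genes per list by size of change, and a fixed panel. Regions in runs, genes near start sites, genes called in the authors' table and further list members were named after their values were seen. The regions and the 18 gene lists and 11 marker lists were chosen with earlier results of these data known. Whether replicates came from separate animals is not in the labels. The p-values therefore reflect the spread among these libraries, which may in part be technical. By its Xist and Ddx3y reads, sham replicate 2 was not a repeat of the other sham libraries.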

Additional observations from a re-analysis of the deposited data

Results flagged for a closer look

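In groups of 4 libraries, the highest or lowest value was set against the nearest other one for 38 genes whose library values were looked at, 76 groups in all. In 6 groups the gap passed Dixon's 95% critical value for 4 samples, and chance alone marks about 1 in 20 groups. Xist RNA in sham replicate 2 was 1187, against 0.87 or less in the other sham libraries. In the same library Ddx3y was 0 and Eif2s3y was 0, while the other sham libraries had 4452 or more for Ddx3y and 1591 or more for Eif2s3y. Klhl6, nearest to a gained promoter, was 451 in day 56 replicate 3, against 230 to 258 in the others. Il34, nearest to a gained region, was 778 in day 56 replicate 4, against 528 to 570 in the others. Ntrk2, nearest to 3 lost regions, was 2975 in day 56 replicate 3, against 3668 to 3770 in the others.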

How the results depend on the processing

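At an absolute log2 difference of at least 1.5, 200 gained and 141 lost regions remained, and at 2, 59 and 57. An FDR of at most 0.01 left 355 lost regions. Requiring a reciprocal overlap of 50% left, for 0.2 kPa, 16 gained regions that culture lost and 26 lost in both, and for 32 kPa 16 and 25. Culture folds of at least 2 left, for 0.2 kPa, 47 gained in both, 2 lost that culture gained and 28 lost in both, and for 32 kPa 96 gained in both, 17 gained that culture lost, 7 lost that culture gained and 26 lost in both. Over whole regions, C/EBP letters stood in 12.8% and GATA letters in 6.98% of lost regions.

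Limma's RNA calls, 0 higher and 1 lower, became 10 higher with a pseudocount of 5, and 4 lower with values as deposited, which place the median of all genes at -0.22. A term for Xist-positive libraries left 0 lower. Alternatives chosen after seeing the data gave 7 higher and 2 lower with a term for libraries with fewer genes detected, 0 lower within those 4 libraries, 4 higher and 6 lower within the 4 with more genes, and 13 higher without the 4 with fewer. Nearest genes of gained regions called higher numbered 3 with a pseudocount of 5, 3 with that term, 1 within the 4 with more genes and 5 without the 4, and nearest genes of lost regions called lower 3 within the 4 with more genes. Leaving out 1 library at a time gave 0 to 5 genes higher and 0 to 4 lower, and 0 to 3 nearest genes of gained regions higher. The most, 5 higher and 4 lower, came without sham replicate 2, the Xist-positive one. The cause of these changes was not tested.

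Deviations of same-numbered day 56 and sham RNA libraries correlated at -0.158, 0.0486, -0.119 and 0.115, so no shared deviation was seen. Whether the replicate numbers pair libraries is not in the labels. With the replicate block, limma called 0 genes lower, and 58 genes of gained regions were higher at an unadjusted p under 0.05 (11.3%, all genes 2.7%). No test result changed its direction while past the threshold under the settings run.

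With values as deposited, 34 genes of gained regions were higher (6.58%) and 43 lower (8.32%) at an unadjusted p under 0.05. Of genes of lost regions, 3 were higher (0.781%) and 80 lower (20.8%). Among all genes 288 were higher (1.36%) and 2296 lower (10.9%). The contrast between the directions is therefore read relative to the median of all genes. ATAC group values without libraries limit what can be said of single regions, and 14288605 reads in the shallowest day 56 library limit low genes such as Runx2.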

Other observations

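Chromosome 18 held 47 gained and 13 lost regions, and chromosome 4 held 45 gained and 50 lost. On chromosome 18 the gene of the mechanosensitive channel Piezo2 had 4 gained regions, the largest with 6.48 at day 56 and 4.41 in sham (difference 2.07, authors' FDR 4.48e-11), and a log2 RNA difference of 0.79 ± 0.33 (limma adjusted p = 0.775). Ppp1r3a, which encodes a glycogen-targeting phosphatase subunit, also had 4 gained regions and a log2 RNA difference of 0.78 ± 0.30 (limma adjusted p = 0.758). The RNA of both genes overlapped between the groups.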
